A study of Mus musculus with 35 samples.

Results

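Knockout of *Tet3* was compared with the wild type in the Tet3-CD experiment, an RNA-seq experiment on mouse neuroectoderm (NE) cells derived from embryonic stem cells (ESCs). The samples were chosen by genotype: all knockout and wild-type libraries of that experiment, 4 of its 6 libraries, out of 26 RNA-seq samples and 35 samples in the series. The groups are *Tet3*+/+ (wild type) with the empty vector, *Tet3*+/+ with Tet3-CD, *Tet3*-/- (knockout) with the empty vector and *Tet3*-/- with Tet3-CD, with 1 library each. The replicates of a genotype therefore differ in vector: the comparison is 2 against 2, with the vector as a paired block. Tet3-CD is the HA-tagged wild-type catalytic domain of TET3, and the empty vector has the same backbone with a fluorescent reporter. The cells are V6.5 ESCs, a male line of mixed 129 and C57BL/6 background, plated on gelatin for 24 h and then differentiated without LIF and with 1 µM retinoic acid. The knockout was made by deleting exon 4 with a pair of guides. The study made 3 knockout clones, and the labels do not say which was used here, so clone and genotype cannot be told apart. By the study's methods the plasmids went in on day 2 and RNA was taken 48 h later, whereas the labels give 72 h of differentiation for all samples. The remaining libraries, from the catalytic mutant *Tet3* m/m, are not in the 2 against 2 comparison; they are in the fits with a library left out, which take all other libraries of the experiment, and in the comparisons that name them.

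TET enzymes oxidize 5-methylcytosine, the first step of active DNA demethylation, and can also act on genes without that activity. TET3 is low in ESCs and rises as they differentiate toward the nervous system. Retinoic acid drives ESCs toward neural fates, but also toward extraembryonic endoderm, whose visceral layer secretes carriers such as AFP and transthyretin and whose parietal layer lays down laminin and type IV collagen. DNA methylation in the early embryo helps keep trophoblast and germline genes silent.

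Reads counted in the 17705 genes with deposited values were 33475041 and 36108593 in the wild type and 35242630 and 37401121 in the knockout. The order is empty vector, Tet3-CD, which holds for all values below. Values are counts divided by a size factor per library (normalized counts). The knockout libraries differed more between vectors than the wild-type libraries did. Among 12327 genes with a mean of at least 100, 14 were more than 2-fold higher and 12 more than 2-fold lower with Tet3-CD in the wild type, against 204 and 250 in the knockout and 8 and 17 in the catalytic mutant. Over all 17073 genes tested, the counts were 377 and 457 in the wild type, 643 and 812 in the knockout and 301 and 346 in the mutant.

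Neuroectoderm markers were present in all 4 libraries, at levels that differed widely. *Nes*, a neural progenitor filament gene and the most abundant of the progenitor list, was at 5409.8 and 6259 in the wild type and 5042 and 12359 in the knockout. The neural transcription factor gene *Pax6* was at 518 and 476 in the wild type and 431 and 472 in the knockout. Lower values were those of the proneural gene *Neurog2*, at 66.2 and 55.3 in the wild type and 59.1 and 22.7 in the knockout, and of *Sox1* and *Hes5*, given below. The summed normalized counts of the 30 neural progenitor factors listed, 29 of them tested, were 30476 and 30561 in the wild type and 30429 and 35821 in the knockout. Markers of other cells were present too. The parietal endoderm list summed to 1367329 and 1157605 in the wild type and 416823 and 294427 in the knockout, which was 3.82% and 3.25% of all normalized counts in the wild type and 1.18% and 0.833% in the knockout. The labelled NE cultures thus held RNA of endoderm genes, more of it in the wild type, and in bulk samples fewer cells of a type and less RNA per cell cannot be told apart. The part of cell composition in the results was not tested.

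*Tet3* itself was at 4755 and 5441 in the wild type and 2069.8 and 2759 in the knockout, lower in both knockout libraries than in both wild-type libraries. The log2 fold change was -1.09 (SE 0.10; limma, BH-adjusted p = 0.000176), where BH is the Benjamini-Hochberg adjustment over all genes tested. Gene-level counts include reads outside the deleted exon 4 and can include reads of the Tet3-CD transcript, which were not separated, so they do not measure the intact transcript. Between vectors, *Tet3* went from 1849.9 to 5232 in the catalytic mutant, a larger step than in the other genotypes. *Tet3* lost its call when either wild-type library was left out, with the direction kept. *Tet1*, another enzyme of the family, was at 2047 and 1942 in the wild type and 2061 and 1318 in the knockout and *Tet2* at 1436 and 1519 in the wild type and 1596 and 1382 in the knockout, and neither passed the test. Of 12 DNA methylation enzymes tested, *Tet3* alone did (2 fell without the knockout empty-vector library), and the maintenance methyltransferase *Dnmt1* was at 14455 and 14184 in the wild type and 20149.8 and 15450.5 in the knockout.

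Of 17073 genes tested, 1267 (7.42%) rose and 717 (4.20%) fell in the knockout, counted as differentially expressed genes (DEGs) where the adjusted p was below 0.05 and the change exceeded 1.5-fold. Among them 275 rose and 129 fell by more than 4-fold. In 1260 of the rising DEGs both knockout values lay above both wild-type values, and in 711 of the falling DEGs both lay below. Over all genes tested, 28.7% had both knockout values above and 28.0% had both below. A fit of all 6 libraries, the catalytic mutant included, gave 1251 rising and 663 falling. Libraries were left out from that fit, because 3 libraries alone leave no spread to estimate, so the mutant libraries enter the vector effect and the spread of every left-out count and call below. In it, without the wild-type empty-vector library 353 rose and 182 fell, and without the wild-type Tet3-CD library 606 rose and 211 fell. Without the knockout empty-vector library 1747 rose and 1085 fell. In the 4 libraries without the vector block 840 rose and 450 fell. Where 4 counts are given for a gene list with 1 library left out, they stand in the order wild type with the empty vector, wild type with Tet3-CD, knockout with the empty vector and knockout with Tet3-CD. The median log2 fold change of rising DEGs was 1.28 in the empty vector pair and 1.14 in the Tet3-CD pair, and that of falling DEGs was -1.01 and -1.18.

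**Figure D1:**
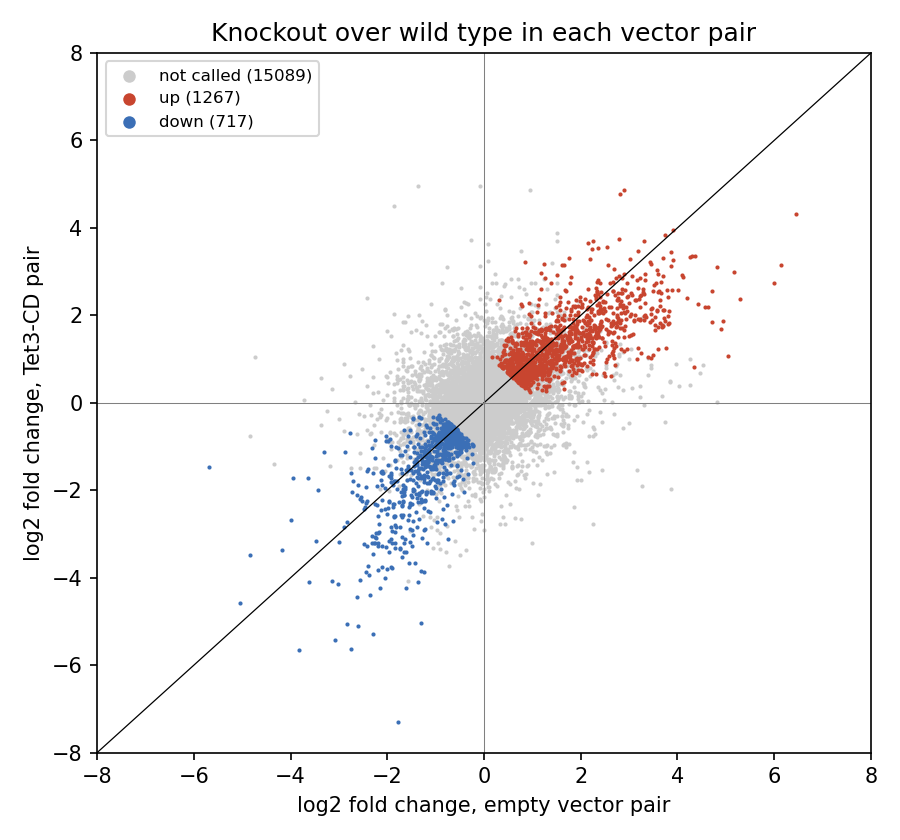
Log2 fold change of the knockout over the wild type for each of 17073 genes in the empty vector pair (x axis) and the Tet3-CD pair (y axis). Points are colored by the test (1267 up, 717 down), the diagonal marks equal changes, and the DEGs lie in the quadrants where both pairs move the same way.

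Genes of the visceral endoderm, the outer epithelium that feeds the early embryo, fell as a group. Of 23 tested, 19 fell and 0 rose, and the list median was -2.52, -1.85 in the empty vector pair and -2.96 in the Tet3-CD pair, where the median over all genes was near 0. Summed normalized counts were 98471 and 84811 in the wild type and 30055 and 16692 in the knockout. Without the wild-type empty-vector library 10 of the list fell, and without the wild-type Tet3-CD library 11 did.

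*Cubn*, the gene for the endocytic receptor cubilin and the most abundant of the list, was at 27912 and 23591 in the wild type and 6071 and 1669.7 in the knockout. It was lower in both knockout libraries, lowest with Tet3-CD, and its log2 fold change was -3.01 (SE 0.29; limma, BH-adjusted p = 0.000188). The retinol carrier *Rbp4* was at 3775 and 3575 in the wild type and 427 and 209.8 in the knockout, with a log2 fold change of -3.61 (SE 0.20; limma, BH-adjusted p = 2.83e-05). *Apob*, which packages lipoproteins, had a log2 fold change of -3.01 in the empty vector pair and -4.15 in the Tet3-CD pair, and both knockout values again lay below both wild-type values. Among the falls of largest size were *Afp*, at 399.5 and 329 in the wild type and 58.1 and 5.7 in the knockout, *Ttr*, the gene for transthyretin, at 449 and 434 in the wild type and 72.2 and 18.9 in the knockout, *Apoa1*, at 254 and 185 in the wild type and 51.1 and 3.8 in the knockout, and *Hnf4a*, a hepatocyte and visceral endoderm transcription factor, at 995 and 686 in the wild type and 190.4 and 43.5 in the knockout. These 4 fell in both vector pairs, more with Tet3-CD, but lost the call when a wild-type library was left out, *Ttr* only for that of Tet3-CD, and *Afp* and *Apoa1* also lost it without the vector block.

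Parietal endoderm genes, which build the thick basement membrane facing the mother, showed the same direction at far higher levels. Of 14 tested, 13 fell, 0 rose, and in all 14 both knockout values lay below both wild-type values, with a list median of -1.83. *Lama1*, a laminin chain, was at 196257 and 158148 in the wild type and 40099 and 14417 in the knockout, with a log2 fold change of -2.87 (SE 0.22; limma, BH-adjusted p = 7.44e-05). *Col4a1*, a type IV collagen chain and the most abundant gene of the list, was at 340553 and 275538 in the wild type and 92923 and 55079.9 in the knockout, a change of -2.10 (SE 0.14; limma, BH-adjusted p = 4.83e-05). The activin antagonist *Fst* was at 6757 and 5790.5 in the wild type and 1209.8 and 615 in the knockout and the parathyroid hormone receptor *Pth1r* at 14882 and 11611 in the wild type and 4017 and 2234 in the knockout, both lower in both knockout libraries. *Pdgfra*, a growth factor receptor of primitive endoderm, was at 11469 and 9785 in the wild type and 3482 and 1662 in the knockout. The list had 11 falls without the wild-type empty-vector library and 12 without the wild-type Tet3-CD library. *Gata4*, a GATA factor of endoderm and heart, was at 14098 and 11641 in the wild type and 3106 and 1200.1 in the knockout, and *Gata6* at 7108 and 6335 in the wild type and 2354 and 3194 in the knockout, the first with a log2 change of -2.73, the second of -1.29.

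Trophoblast factors and simple keratins, which mark the placental lineage and simple epithelia, rose. Of 12 tested, 11 rose and 1 fell, with a median of 1.29. *Krt7* was at 2248 and 2847 in the wild type and 12397 and 14179 in the knockout, with a log2 fold change of 2.39 (SE 0.09; limma, BH-adjusted p = 1.27e-05), and *Krt8*, the most abundant of the list, at 21154 and 25230.4 in the wild type and 43805 and 66487 in the knockout. *Tfap2c*, a transcription factor of trophoblast and germ cells, was at 605 and 640.1 in the wild type and 5242 and 2562 in the knockout, a change of 2.56 (SE 0.22; limma, BH-adjusted p = 0.000115). Both knockout values lay above both wild-type values for these genes, and for *Plac1*, a placental gene, at 167 and 214 in the wild type and 1257 and 731 in the knockout, and *Elf5*, a trophoblast stem cell factor silenced by methylation in the embryo, at 12.8 and 7.9 in the wild type and 98.2 and 50.1 in the knockout. *Elf5* lost its call without either wild-type library. *Cdx2*, the falling member and chosen here after its values were seen, was at 267 and 191 in the wild type and 112 and 71.8 in the knockout. Of the trophoblast list, 6, 9, 9 and 11 rose and 0, 0, 1 and 1 fell with 1 library left out, and 9 rose and 0 fell without the vector block. *Gjb2*, a gap junction gene of the placenta and other epithelia that is outside the list, rose to 4046 and 2193 from 237 and 288.

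**Figure D2:**
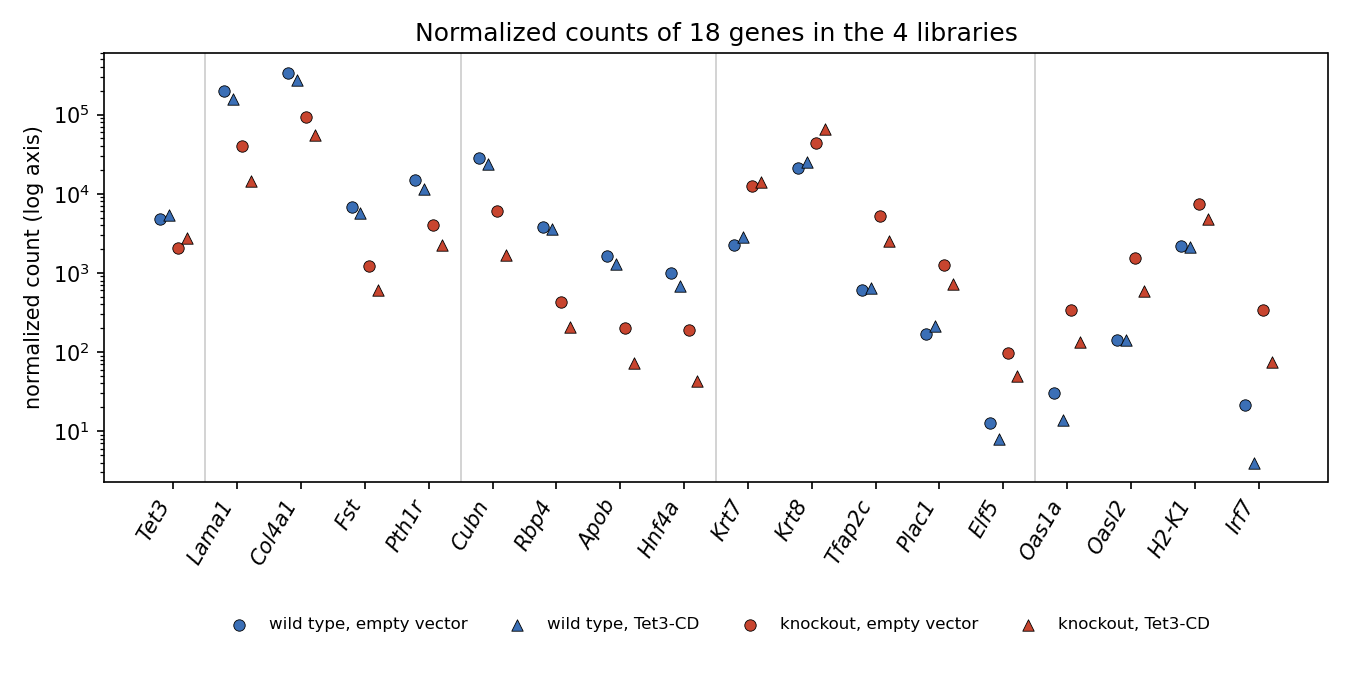
Normalized counts of 18 genes in the 4 libraries, on a log axis, with 1 point per library. Circles are the empty vector and triangles Tet3-CD, with blue for the wild type and red for the knockout, and grey lines part *Tet3*, parietal endoderm, visceral endoderm, trophoblast and keratin, and interferon genes.

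Interferon and antigen-presentation genes also rose. Of 22 tested, 18 rose and 0 fell, with a median of 1.51, 2.05 in the empty vector pair and 1.12 in the Tet3-CD pair. *Oas1a*, which senses double-stranded RNA, was at 29.9 and 13.8 in the wild type and 339 and 133 in the knockout, and *Oasl2*, a related gene, at 141 and 142 in the wild type and 1553 and 588 in the knockout. *Irf7*, a transcription factor that amplifies interferon expression, was at 21.4 and 4.0 in the wild type and 335 and 75.6 in the knockout. All 3 genes were higher in both knockout libraries, highest with the empty vector, and *Irf7* lost its call without the vector block. *H2-K1*, a class I antigen gene, was at 2201 and 2146 in the wild type and 7433 and 4728 in the knockout, a change of 1.45 (SE 0.14; limma, BH-adjusted p = 0.000214), and members of this family can share reads. Of the list, 8 rose without the wild-type empty-vector library and 15 without the wild-type Tet3-CD library. *Parp14*, an interferon-induced gene outside the list, was at 32.0 and 35.6 in the wild type and 575 and 268 in the knockout.

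Promoters of these genes were searched for the interferon-stimulated response element, read as a copy of GAAA, any 2 bases and a further copy of GAAA, on either strand, with overlapping matches counted. The window was the RefSeq (GRCm38.p6) promoter of 300 bases. Of 18 rising genes 16 had a promoter in the table, and 8 (50%) held the letters, as did 10 of 20 promoters of the whole list, rising or not (50%), against 326 of 12000 promoters of all genes tested (2.72%). Among all rising DEGs 50 of 934 promoters did (5.35%), and among all falling DEGs 8 of 543 (1.47%). *Irf7* held none in this window. The 3 promoters shown, of *Oas1a*, *Isg15* and *Bst2*, carry 2, 3 and 2 matches, in capitals. *Isg15* and *Bst2* were chosen after their values were seen, for these matches: *Isg15* was at 82.3 and 103 in the wild type and 517 and 228 in the knockout, and *Bst2* at 757 and 839 in the wild type and 6542 and 3132 in the knockout. A match describes letters, and binding was not measured. All 3 lie on the minus strand, at chr5:120907476-120907775 (*Oas1a*), chr4:156200769-156201068 (*Isg15*) and chr8:71537423-71537722 (*Bst2*), in the order below.
Oas1a: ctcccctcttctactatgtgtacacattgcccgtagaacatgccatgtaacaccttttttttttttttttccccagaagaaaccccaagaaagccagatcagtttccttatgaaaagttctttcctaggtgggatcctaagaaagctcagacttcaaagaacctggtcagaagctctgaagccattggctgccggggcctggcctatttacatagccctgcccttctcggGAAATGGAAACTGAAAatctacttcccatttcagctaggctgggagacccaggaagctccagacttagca
Isg15: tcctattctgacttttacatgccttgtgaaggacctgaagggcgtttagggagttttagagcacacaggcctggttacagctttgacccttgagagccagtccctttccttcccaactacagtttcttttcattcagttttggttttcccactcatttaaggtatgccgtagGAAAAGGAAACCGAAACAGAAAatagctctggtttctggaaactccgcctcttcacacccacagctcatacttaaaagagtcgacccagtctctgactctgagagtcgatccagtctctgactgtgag
Bst2: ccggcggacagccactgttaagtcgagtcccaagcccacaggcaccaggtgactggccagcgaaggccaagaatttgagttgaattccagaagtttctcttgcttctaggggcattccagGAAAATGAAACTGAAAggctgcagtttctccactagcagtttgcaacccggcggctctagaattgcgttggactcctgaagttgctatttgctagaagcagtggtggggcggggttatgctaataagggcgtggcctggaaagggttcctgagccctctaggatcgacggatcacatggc

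Pluripotency genes, which keep ESCs undifferentiated, rose more often than they fell: 12 of 23 rose and 3 fell, with a median of 0.84. The summed normalized counts of the list were 38732 and 32005 in the wild type and 36974 and 26215 in the knockout. These sums were lower in the knockout with each vector. *Esrrb*, a naive pluripotency factor, was at 380.3 and 261 in the wild type and 1395 and 774 in the knockout, higher in both knockout libraries, and *Dppa3*, also of naive cells and germ cells, was at 7.5 and 9.9 in the wild type and 102 and 24.6 in the knockout. *Lin28a*, the most abundant of the list, was at 11705 and 10745 in the wild type and 8854 and 6766 in the knockout and did not pass the fold change threshold. Falling members were led by *Fgf5*, an epiblast growth factor gene, at 245 and 286 in the wild type and 64.1 and 80.3 in the knockout, and the threonine dehydrogenase gene *Tdh*, at 1452 and 1226 in the wild type and 462 and 296 in the knockout. Of the pluripotency list, 4, 3, 9 and 14 rose and 1, 3, 6 and 3 fell with 1 library left out, and 4 rose and 3 fell without the vector block. *Dppa3* lost its call without either wild-type library, the knockout empty-vector library or the vector block and with all 6 libraries, and *Fgf5* without the wild-type empty-vector library. Methylation-controlled germline genes had 4 of 18 rising and 0 falling, with a median of 0.41, beside 7.42% and 4.20% of all genes tested. *Tex19.1*, a germ cell gene that DNA methylation silences, was at 451 and 452 in the wild type and 1742 and 1231 in the knockout, and the RNA-binding protein gene *Dazl* at 124 and 94.8 in the wild type and 242 and 173 in the knockout. *Dazl* lost its call without either wild-type library, without the vector block, with edgeR and with DESeq2. Of the germline list, 1, 1, 5 and 6 rose and 0 fell each time with 1 library left out, and 1 rose and 0 fell without the vector block.

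The neural lists moved little. Of 29 neural progenitor factors 2 rose and 1 fell (median -0.12), of 20 proneural and Notch genes 1 rose and 2 fell (-0.04), and of 19 neuronal differentiation genes 1 rose and 2 fell (-0.05). Over all genes tested the shares were 7.42% and 4.20%. Of the progenitor list, 2, 2, 5 and 3 rose and 0, 0, 2 and 2 fell with 1 library left out, and 2 rose and 0 fell without the vector block. Of the proneural list, 0, 1, 1 and 2 rose and 0, 0, 3 and 1 fell with 1 library left out, and 1 rose and 0 fell without the vector block, and of the neuronal list, 0, 0, 2 and 2 rose and 1, 1, 4 and 1 fell with 1 library left out, and 1 rose and 1 fell without the vector block. *Pou3f1*, a POU factor of early neural cells, was at 89.7 and 98.8 in the wild type and 574 and 412 in the knockout, a change of 2.36 (SE 0.24; limma, BH-adjusted p = 0.000272). *Irx3*, a homeobox gene of the caudal neural tube, was at 716 and 677 in the wild type and 2578 and 1638 in the knockout, higher in both knockout libraries. *Otx2*, the anterior neural factor that fell, was at 53.4 and 41.5 in the wild type and 14.0 and 11.3 in the knockout and lost its call without either wild-type library, without the vector block and with DESeq2. *Sox1*, an early neuroectoderm factor, was at 324 and 178 in the wild type and 279 and 162 in the knockout, and the proneural gene *Neurog1* at 132 and 53.3 in the wild type and 279 and 90.7 in the knockout. Neither passed the test, and neither did *Hes5*, a Notch target, at 64.1 and 21.7 in the wild type and 82.2 and 27.4 in the knockout, nor *Pax3* or *Neurog2*. *Nefl*, a neurofilament gene, fell from 812 and 768 to 362 and 300.5, and the neuronal tubulin *Tubb3* was at 686 and 701 in the wild type and 1157 and 1306 in the knockout. *Tubb3* lost its call without either wild-type library. Of 12 neural crest factors 2 rose and 3 fell (median -0.02): *Msx1*, a BMP-responsive homeobox gene, was at 1555 and 1648 in the wild type and 785 and 851 in the knockout, and *Snai1*, which drives loss of epithelial form, at 2067 and 1557 in the wild type and 873 and 605 in the knockout, and both fell. *Ngfr*, a neurotrophin receptor gene, at 182 and 118 in the wild type and 321 and 299 in the knockout, and *Tfap2a*, at 259.6 and 247 in the wild type and 494 and 356 in the knockout, rose. Both of these lost the call without either wild-type library or the vector block, and *Tfap2a* also without the knockout empty-vector library and with DESeq2. Of the crest list, 0, 0, 4 and 3 rose and 2, 2, 4 and 2 fell with 1 library left out, and 0 rose and 3 fell without the vector block.

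**Figure D3:**
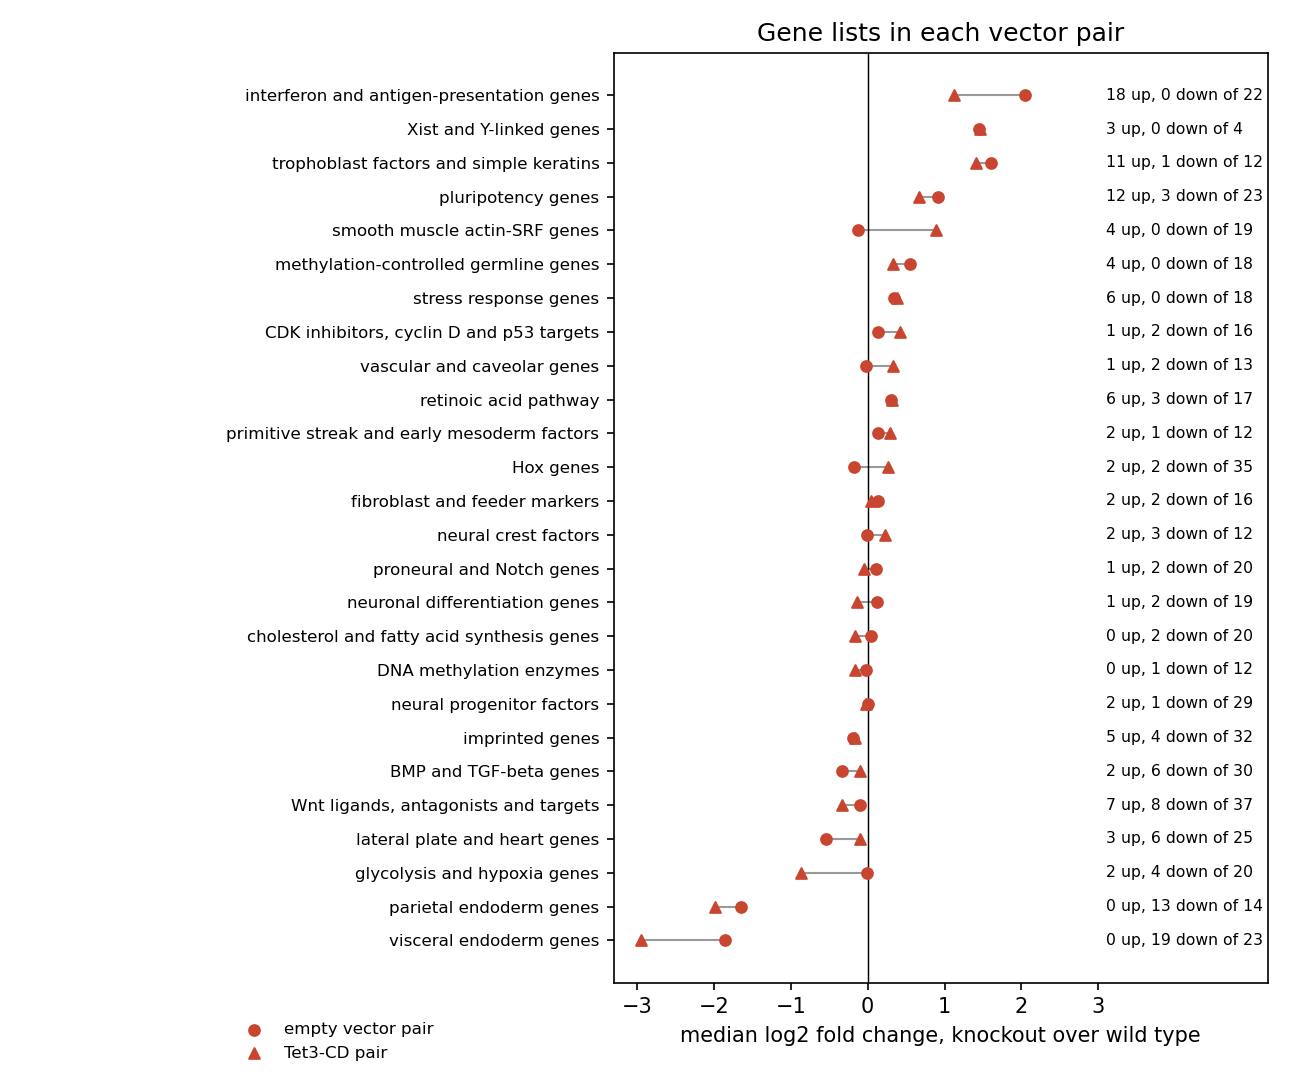
Median log2 fold change of the knockout over the wild type for 26 gene lists, in the empty vector pair (circles) and the Tet3-CD pair (triangles). The counts at the right give DEGs in each direction of the genes tested, and the endoderm lists lie lowest, at -1.85 and -2.96 for the visceral list.

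Mesoderm and muscle lists were mixed. For the list counts of this comparison here and below, the shares over all genes tested were 7.42% rising and 4.20% falling. Of 12 primitive streak and early mesoderm factors 2 rose and 1 fell (median 0.13). *Cdx1*, a caudal homeobox gene that retinoic acid and Wnt signals induce, was at 115 and 117 in the wild type and 968 and 876 in the knockout, a change of 2.98 (SE 0.19; limma, BH-adjusted p = 3.69e-05). *Nodal* was at 219 and 158 in the wild type and 377 and 478 in the knockout and lost its call without the wild-type Tet3-CD library. Of the streak list, 2, 1, 4 and 3 rose and 0, 0, 1 and 2 fell with 1 library left out, and 2 rose and 0 fell without the vector block. Of 25 lateral plate and heart genes 3 rose and 6 fell (median -0.35). *Myl4*, an atrial myosin light chain gene, rose from 65.2 and 88.9 to 1259 and 900.5, and *Hand1*, a factor of trophoblast and heart, was at 339.7 and 399 in the wild type and 2008 and 1197 in the knockout. The most abundant of the list, *Gata4*, whose values are given above with the endoderm genes, was among the 6 that fell, with a log2 fold change of -2.73. These 3 genes kept the call under every alternative and left-out library. Of the heart list, 2, 2, 7 and 3 rose and 4, 3, 8 and 9 fell with 1 library left out. *Hrc*, a calcium store gene, was at 96.1 and 120.5 in the wild type and 444 and 232 in the knockout and lost its call without either wild-type library or the vector block.

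The smooth muscle list differed between the 2 knockout libraries. Its summed normalized counts were 161071 and 192047 in the wild type and 151247 and 369063 in the knockout, and 376567 and 356765 in the catalytic mutant. Of 19 actin and SRF-controlled genes 4 rose and 0 fell, with a median of -0.12 in the empty vector pair and 0.88 in the Tet3-CD pair, and 9 of the 19 were above the wild type in the former and all 19 in the latter. *Flna*, the most abundant of the list, was at 42786 and 50871 in the wild type and 37343 and 85633 in the knockout, with the 2 knockout values on either side of the wild type, and *Myl9*, a myosin light chain gene, at 2288 and 2536 in the wild type and 1938 and 6696 in the knockout. *Tpm2*, which rose, was at 3236 and 3926 in the wild type and 4856 and 10445 in the knockout, and lost its call without the vector block, either wild-type library or the knockout Tet3-CD library. With either wild-type library or the knockout Tet3-CD library left out, 0 of the list rose, and without the knockout Tet3-CD library 5 fell, while without the knockout empty-vector library 14 rose. Without the vector block 0 of the list rose. Of 13 vascular and caveolar genes 1 rose and 2 fell (median 0.27): *Flt1*, a VEGF receptor gene, was at 5952 and 5457 in the wild type and 2641 and 1336 in the knockout, and *Kdr* at 342 and 444 in the wild type and 174 and 256 in the knockout, which lost its call without either wild-type library or the vector block. Caveolar *Cav1* was at 81.2 and 61.2 in the wild type and 24.1 and 142 in the knockout, below the wild type with the empty vector and above it with Tet3-CD. Of the vascular list, 0, 0, 6 and 3 rose and 1, 1, 3 and 3 fell with 1 library left out, and 0 rose and 1 fell without the vector block. With all 4 libraries and the block, 7.42% of all genes tested rose and 4.20% fell.

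Of 17 retinoic acid pathway genes 6 rose and 3 fell (median 0.24), beside 7.42% and 4.20% of all genes tested. Of this list, 3, 4, 8 and 6 rose and 0, 0, 4 and 4 fell with 1 library left out, and 4 rose and 0 fell without the vector block. *Cyp26a1*, which breaks retinoic acid down, was at 12575 and 11302 in the wild type and 3094 and 6718 in the knockout, lower in both knockout libraries, while *Cyp26b1*, a second such enzyme, was at 1584 and 1904 in the wild type and 1962 and 9742 in the knockout, high mainly in 1 knockout library. Both lost the call without either wild-type library, without the vector block and with DESeq2, and *Cyp26b1* also with edgeR, TMM rescaling, a mean of at least 50 and all 6 libraries, and without the knockout Tet3-CD library. The retinoic acid target *Stra8*, a meiosis gene, was at 829 and 883 in the wild type and 2667 and 5305 in the knockout, higher in both knockout libraries. Of 35 Hox genes, which set position along the body axis, 2 rose and 2 fell. The median was -0.18 in the empty vector pair, with 10 of the 35 above the wild type, and 0.26 in the Tet3-CD pair, with 25 above. *Hoxb1*, of hindbrain, was at 283 and 272 in the wild type and 528 and 890.1 in the knockout, and the falling *Hoxa10* at 549 and 552 in the wild type and 209.5 and 248 in the knockout and *Hoxa9* at 781 and 756 in the wild type and 357 and 385 in the knockout. *Hoxa9* and *Hoxa10* lost the call without the wild-type empty-vector library, and *Hoxa9* and *Hoxb1* without the wild-type Tet3-CD library. Of the Hox list, 1, 0, 10 and 1 rose and 0, 1, 2 and 6 fell with 1 library left out, and 1 rose and 2 fell without the vector block.

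Among Wnt genes, 7 of 37 rose and 8 fell (median -0.21), beside 7.42% and 4.20% of all genes tested. Of the Wnt list, 1, 1, 10 and 4 rose and 4, 2, 7 and 9 fell with 1 library left out, and 2 rose and 5 fell without the vector block. Ligands stood among those that rose: *Wnt7b* was at 508 and 610.5 in the wild type and 3141 and 2787 in the knockout, a change of 2.41 (SE 0.14; limma, BH-adjusted p = 2.83e-05), *Wnt10b* at 54.5 and 85.9 in the wild type and 144 and 580.2 in the knockout and *Wnt10a* at 36.3 and 58.3 in the wild type and 90.2 and 148 in the knockout. The secreted antagonist *Frzb*, at 1491 and 1231 in the wild type and 459 and 106 in the knockout, stood among those that fell. *Wnt10a* and *Wnt10b* lost the call without either wild-type library, *Frzb* without the wild-type Tet3-CD library, all 3 without the vector block, and *Wnt10a* with DESeq2. Of 30 BMP and TGF-beta genes 2 rose and 6 fell (median -0.21): the ligand *Bmp6* was at 741 and 548 in the wild type and 303 and 229.6 in the knockout and *Smad9*, a BMP signal transducer, at 349 and 378 in the wild type and 98.2 and 133 in the knockout. Both *Bmp6* and *Smad9* lost the call without the wild-type empty-vector library. Of the BMP list, 1, 2, 6 and 2 rose and 1, 2, 6 and 12 fell with 1 library left out.

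Of 32 imprinted genes, whose expression depends on parental methylation, 5 rose and 4 fell (median -0.16), beside 7.42% and 4.20% of all genes tested. Of the imprinted list, 2, 4, 5 and 6 rose and 2, 3, 5 and 5 fell with 1 library left out. *Igf2*, a paternally expressed growth factor gene, was at 17549.9 and 18176 in the wild type and 47138 and 32511 in the knockout, and *Phlda2*, a maternally expressed placental growth restrictor, at 517 and 591 in the wild type and 5236 and 2366 in the knockout, a change of 2.67 (SE 0.25; limma, BH-adjusted p = 0.000176). *Slc22a18*, in the same imprinted cluster as *Phlda2*, was at 44.9 and 67.2 in the wild type and 646 and 239 in the knockout and lost its call without either wild-type library. *Peg10*, a paternally expressed placental gene and the most abundant of the list, was at 95415 and 113709.9 in the wild type and 219228 and 198598 in the knockout. *Cdkn1c*, also in the list of cell cycle genes, was at 9833 and 10169 in the wild type and 23909.6 and 17785 in the knockout. Of 16 cell cycle and p53 genes 1 rose and 2 fell (median 0.28), and the cyclin gene *Ccnd2* was at 10712 and 9915 in the wild type and 6417 and 4898 in the knockout. Of the cell cycle list, 0, 1, 7 and 1 rose and 0, 0, 2 and 1 fell with 1 library left out. *Peg10*, *Cdkn1c* and *Ccnd2* lost the call without the wild-type empty-vector library, and *Ccnd2* also without the wild-type Tet3-CD library. *Cdkn1a*, a p53-induced inhibitor, was at 6393 and 7239.6 in the wild type and 6658 and 10379 in the knockout and *Cdkn2a* at 1637 and 1694 in the wild type and 1438 and 2277 in the knockout, and neither passed the test.

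Metabolic and stress lists were examined too, beside shares of 7.42% rising and 4.20% falling over all genes tested. Of 20 glycolysis and hypoxia genes 2 rose and 4 fell, with a median of -0.01 in the empty vector pair and -0.86 in the Tet3-CD pair. Of the glycolysis list, 1, 1, 3 and 2 rose and 2, 1, 12 and 2 fell with 1 library left out, and 1 rose and 1 fell without the vector block. The glucose transporter *Slc2a1* was at 24527 and 22159 in the wild type and 52983 and 46341 in the knockout and the collagen prolyl hydroxylase *P4ha2* at 7932 and 6751 in the wild type and 3977 and 2369.9 in the knockout. *Gapdh*, the most abundant of the list, was at 93664 and 89176 in the wild type and 95469 and 69007 in the knockout and did not pass the test. Of 20 cholesterol and fatty acid synthesis genes 0 rose and 2 fell (median -0.07), among them *Insig1*, a sterol sensor gene, at 14940.1 and 12749 in the wild type and 6052 and 2765 in the knockout. Of the cholesterol list, 0 rose each time and 1, 1, 2 and 2 fell with 1 library left out. Of 18 stress genes 6 rose and 0 fell (median 0.31): *Hspa1b*, a heat shock gene, was at 277 and 337 in the wild type and 971 and 902 in the knockout, *Gadd45b* at 929 and 1018 in the wild type and 2428 and 2695 in the knockout and the heme oxygenase gene *Hmox1* at 2106 and 1935 in the wild type and 5015 and 4119.9 in the knockout. Of the stress list, 4, 3, 9 and 6 rose and 0 fell each time with 1 library left out. Of 16 fibroblast and feeder markers 2 rose and 2 fell (median 0.00), and *Fn1*, the most abundant, was at 28498 and 34349 in the wild type and 29567 and 48252 in the knockout. Of the fibroblast list, 0, 0, 2 and 3 rose and 0, 0, 2 and 4 fell with 1 library left out, and 2 rose and 1 fell without the vector block.

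Outside the lists, the largest rises among genes with a mean of at least 100 included *C1ql2*, a complement-like secreted protein gene, at 19.2 and 25.7 in the wild type and 572 and 229.6 in the knockout, *Il2rb*, an interleukin receptor gene, at 12.8 and 9.9 in the wild type and 285 and 109.6 in the knockout, and *Vtcn1*, an immune checkpoint ligand gene, at 34.2 and 43.5 in the wild type and 458 and 438 in the knockout. Both knockout values lay above both wild-type values for each. *Chil1* was at 4.3 and 13.8 in the wild type and 336 and 98.3 in the knockout, *Olr1* at 12.8 and 25.7 in the wild type and 363 and 157 in the knockout and *Serpinb9g*, of a multigene family whose members can share reads, at 25.6 and 25.7 in the wild type and 388 and 288 in the knockout. *Chil1* and *Olr1* lost the call without the wild-type empty-vector library. The largest falls included *Srgn*, a proteoglycan gene of parietal endoderm and blood cells, at 7094 and 5282 in the wild type and 1205 and 316 in the knockout, *Pga5*, a pepsinogen gene, at 1416 and 1064 in the wild type and 196 and 31.2 in the knockout, *Nepn* at 467 and 459 in the wild type and 90.2 and 20.8 in the knockout and *Trpc5os* at 262 and 206 in the wild type and 30.1 and 3.8 in the knockout. *Trpc5os* is an antisense transcript whose reads cannot be told apart from its partner's without strand. *Pga5* and *Nepn* lost the call without either wild-type library, and *Trpc5os* without the wild-type Tet3-CD library.

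Y-linked genes differed between genotypes of this male line. *Ddx3y* was at 547 and 587 in the wild type and 1322 and 1146 in the knockout, *Eif2s3y* at 299 and 349.7 in the wild type and 1353 and 1368 in the knockout and *Uty* at 219 and 199.5 in the wild type and 677 and 773 in the knockout, higher in both knockout libraries. In the catalytic mutant libraries *Ddx3y* was at 13.0 and 5.6, *Eif2s3y* at 1.9 and 0, and *Uty* at 0 in both. All 3 passed the test between knockout and wild type, but lost the call when either wild-type library was left out, and *Ddx3y* also with all 6 libraries. The Xist and Y-linked list had a median of 1.45. Medians of the other chromosomes lay within 0.07 of 0 in both vector pairs except on chromosome 8, at 0.10 and 0.14, and whether the clones differ in karyotype was not tested.

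The same genotypes were compared in other libraries. On day 3 without transfection, 3 wild-type and 2 knockout samples, in a fit that takes its spread from all 8 samples, 3 of the catalytic mutant included, gave 82 rising (0.458%) and 33 falling (0.184%) of 17915 genes, and 3608 genes had an unadjusted p under 0.05. DESeq2 gave 916 DEGs in all where limma gave 115, and with any of the 5 samples left out limma gave 0 to 2. The overlap with the Tet3-CD experiment was 19 rising DEGs, 1.51% of its list and 23.5% of the day 3 list, and 11 falling DEGs, 1.61% and 34.4%. With the empty vector of a Dnmt1 experiment, 2 knockout against 2 wild-type samples, in a fit that takes its spread from all 12 samples of the experiment, catalytic mutant and Dnmt1 samples included, gave 1993 rising (11.0%) and 2511 falling (13.9%) of 18055 genes. Of the rising DEGs 394 were shared, 31.4% and 20.0% of the lists, and of the falling DEGs 197, 28.0% and 9.88%. Of the rising and falling DEGs of the Tet3-CD experiment, 3 and 7 were DEGs in the other direction on day 3, and 175 (13.9%) and 111 (15.8%) in the Dnmt1 experiment. By sign alone, 816 of 1260 rising and 300 of 684 falling DEGs were higher in the knockout on day 3. The same counts in the Dnmt1 experiment were 837 of 1256 and 298 of 703. By the study's methods the Dnmt1 experiment used another empty vector, put in at the start of differentiation, and cells were selected with blasticidin before collection; no selection is described for the Tet3-CD experiment. In that Dnmt1 experiment *Tet3* had a log2 fold change of -0.24 (BH-adjusted p = 0.0114) and did not pass the fold change threshold, whereas on day 3 it had -1.21 and was a DEG. Differences between the experiments were not tested.

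**Figure D4:**
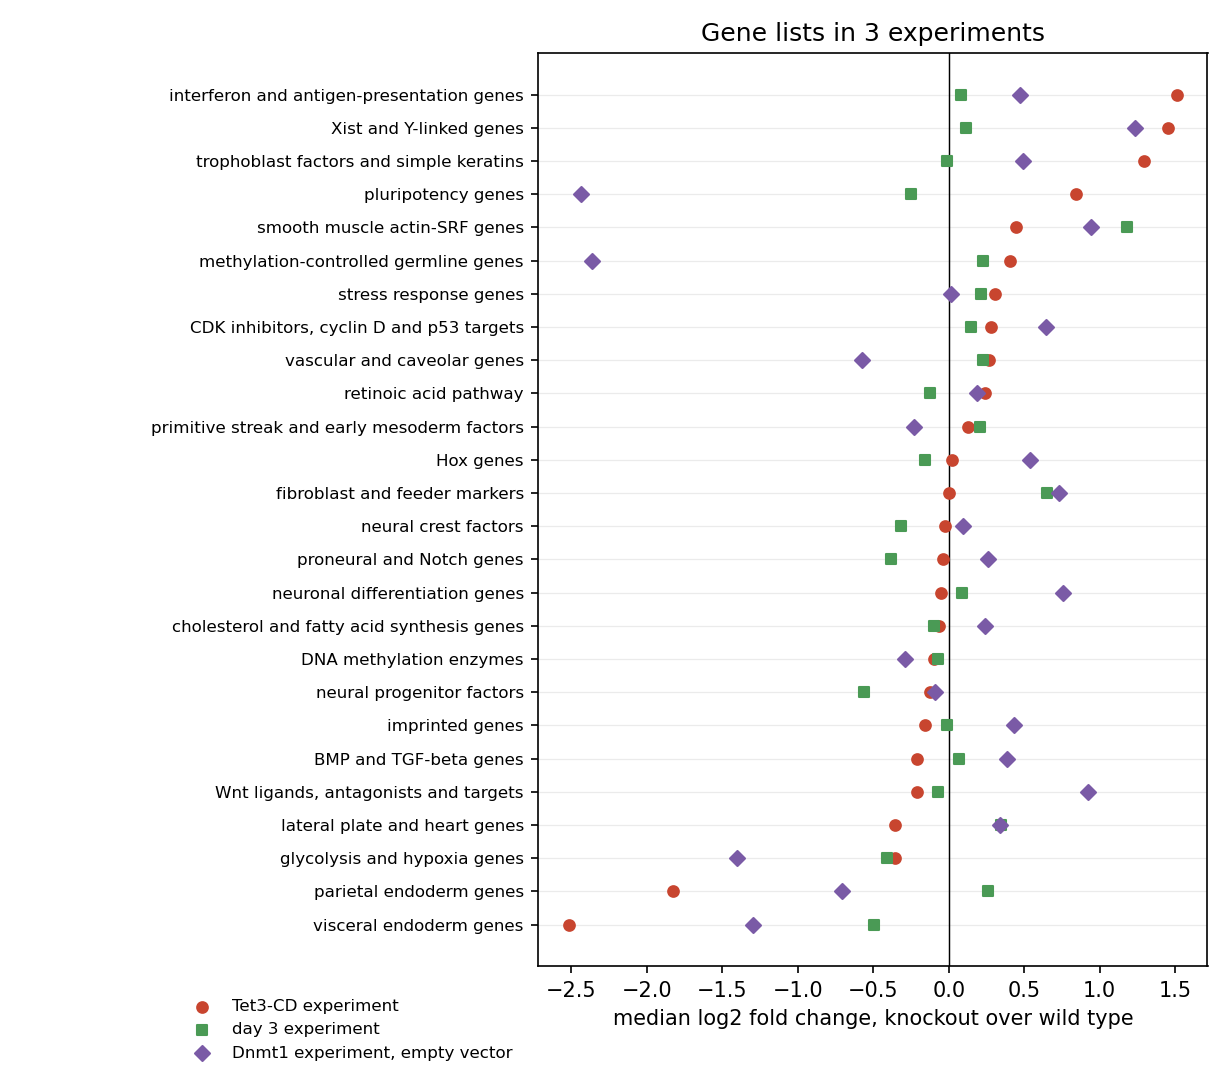
Median log2 fold change of the knockout over the wild type for 26 gene lists in the Tet3-CD experiment (circles), the day 3 experiment (squares) and the empty vector of the Dnmt1 experiment (diamonds). The pluripotency list lies at 0.84, -0.25 and -2.44 in that order.

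The endoderm lists differed between experiments. The visceral list had medians of -0.50 on day 3, with 1 gene falling, and -1.29 in the Dnmt1 experiment, with 17 falling and 2 rising. The parietal list had medians of 0.26, with 1 gene rising and 0 falling, and -0.71, with 8 falling and 1 rising, and *Gata6* had log2 fold changes of 0.72 and 0.32 and was a DEG in neither. *Cubn* had log2 fold changes of -1.71, which did not pass the test, and -3.89, which did, beside -3.01 here. *Srgn*, *Hkdc1*, *Ano1* and *Ihh* fell in all 3 experiments. *Ihh*, a hedgehog ligand of visceral endoderm, was at 1628 and 1243 in the wild type and 348 and 146 in the knockout, and *Hkdc1*, a hexokinase gene, at 4679 and 3808 in the wild type and 889 and 287 in the knockout. In all, 18 genes of 16518 tested in each were DEGs in the same direction in all 3, 12 of them rising, among them *Trpv2*, an ion channel gene, at 79.1 and 117 in the wild type and 601 and 706 in the knockout, *Arap3* at 776 and 841 in the wild type and 1946 and 2724 in the knockout and the immediate early gene *Junb* at 1669 and 1652 in the wild type and 2766 and 3804 in the knockout. *Junb* and *Ano1* lost the call here without either wild-type library, and *Ano1* without the vector block. Each of the 18 also needs a call on day 3, where the count was not stable to leaving out a sample, as given above. The interferon list had medians of 0.08 and 0.47 in the day 3 and Dnmt1 experiments, and the trophoblast list -0.01 and 0.49. On day 3 neither list had a DEG. In the Dnmt1 experiment 10 of 21 interferon genes rose and 1 fell, and 5 of 12 trophoblast genes rose and 2 fell. Over all genes tested there, the shares were 11.0% and 13.9%. The medians of the pluripotency and germline lists had the opposite sign in the Dnmt1 experiment, at -2.44 and -2.36. The smooth muscle list, with a median of 0.45 here, had 1.18 on day 3, where 2 of 19 rose and 0 fell, beside 0.458% and 0.184% of all genes. In the Dnmt1 experiment its median was 0.94, with 15 of 19 rising and 0 falling.

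Against the catalytic mutant of the same experiment, which shares the knockout libraries with the comparison above, 1335 genes (7.64%) were higher and 1095 (6.26%) lower in the knockout, of 17481 tested. The interferon list had 15 higher and 0 lower of 22, and the trophoblast list 8 higher and 1 lower of 12. The visceral endoderm list, by contrast, had 0 higher and 5 lower of 23, and the parietal list 1 higher and 2 lower of 14. Pluripotency genes, with 0 higher and 16 lower of 23 (median -0.94), and germline genes, with 2 higher and 8 lower of 18 (-0.82), were lower in the knockout than in the mutant more often than higher. *Lama1* was at 30088 and 25686 in the mutant, and *Rbp4* at 329 and 379.5, below the wild-type values of both genes. *Bst2* was at 1112 and 887. Trophoblast list members differed: *Plac1* was at 91.2 and 76.1, below the wild type, whereas *Krt7*, at 6916 and 6745, and *Krt8*, at 62635 and 61028, were above it. The list summed to 127376 and 122680 in the mutant, beside 48608 and 57334 in the wild type and 119333 and 151294 in the knockout. *Hand1* in the mutant was at 379.8 and 273.

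With 1 library per genotype and vector, the test has 1 residual degree of freedom and draws on 7.87 prior degrees of freedom from all genes, so single genes depend on the shared spread.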

How the data were processed

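Of 26 RNA-seq samples, the 4 knockout and wild-type libraries of the Tet3-CD experiment were used, with the catalytic mutant, day 3 and Dnmt1 samples for comparison. The day 3 and Dnmt1 fits hold all 8 and all 12 samples, so mutant and Dnmt1 samples enter their spread, and only knockout and wild type (with the empty vector in the latter) are contrasted. Per the submitters' processing notes, the authors trimmed reads with Trim Galore 0.6.7, aligned them to mm39 with STAR 2.7.9a, counted them with featureCounts and normalized them with DESeq2. The deposited signal values are normalized counts: the authors divided each library by its size factor. Every value is a whole multiple of 1 read (within 0.01), so reads were recovered, 33475041 to 37401121 in the 4 libraries, a depth that limits precision mainly at low values.

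Testing covered 17073 of 17705 genes, those whose deposited values averaged at least 10 over the 4 libraries. The linear model, run in limma 3.58.1 under R 4.3.3, had genotype and vector as terms, took log2(value + 1) as its response and used eBayes with a trend. Benjamini-Hochberg adjustment ran across all of these genes, and a DEG needs adjusted p below 0.05 with a change beyond 1.5-fold. Other fits used edgeR 4.0.16 and DESeq2 1.42.0 on recovered reads, other pseudocounts, filters, TMM factors, no vector block, all 6 libraries, and each library left out from the fit of all 6. The scripts were tested on simulated data.

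Named genes are genes the study shows, the 10 largest rises and falls among DEGs with a mean of at least 100 and both knockout values beyond both wild-type values, up to 4 DEGs and the most abundant gene of each of 26 lists, and DEGs of the same direction in all 3 experiments. The samples and lists were chosen with earlier results of these data known. Figures used Python 3.11.15 and matplotlib 3.10.9. DNA methylation, hydroxymethylation and CUT&Tag data were left out. Promoters came from RefSeq, matched by symbol.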

Additional observations from a re-analysis of the deposited data

Results flagged for a closer look

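The results here moved opposite ways in different samples. None of these differences was tested. By the study's methods the Dnmt1 experiment differs in its empty vector, in transfection at the start of differentiation and in blasticidin selection. Of 122 genes examined by name that were DEGs in the Tet3-CD experiment, 16 were DEGs in the other direction with the empty vector of the Dnmt1 experiment. Over all genes tested in both, 175 of 1256 rising DEGs (13.9%) and 111 of 703 falling DEGs (15.8%) of the Tet3-CD experiment were, while 394 (31.4%) and 197 (28.0%) were DEGs in the same direction. Log2 fold changes are given for the Dnmt1 experiment first and for the Tet3-CD experiment second.

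Some pluripotency and germ cell genes fell in the Dnmt1 experiment and rose in the Tet3-CD experiment, whereas *Tdh*, of the pluripotency list, fell in both, at -3.05 and -1.85. *Dppa3* had -2.62 and 2.42, *Esrrb* -2.35 and 1.72, *Dazl* -3.74 and 0.91, *Tuba3a* -2.38 and 1.35, and *Stk31* -0.72 and 1.07. The same held for *Tfap2c*, with -0.89 and 2.56, *Hand1*, with -1.44 and 2.07, *Hoxb1*, with -1.04 and 1.30, *Nodal*, with -0.93 and 1.19, the endothelial adhesion gene *Pecam1*, with -2.66 and 1.20, the glucose transporter *Slc2a1*, with -0.60 and 1.09, and the heat shock genes *Hspa1a*, with -1.97 and 1.13, and *Hspa1b*, with -0.83 and 1.61. The reverse held for the BMP receptor *Bmpr1b*, with 1.53 and -1.02, the cyclin *Ccnd1*, with 0.61 and -0.68, and the neurofilament gene *Nefl*, with 0.62 and -1.26. In the Tet3-CD experiment *Dppa3*, *Dazl*, *Tuba3a*, *Stk31* and *Pecam1* lost the call without either wild-type library and without the vector block, *Hspa1a*, *Bmpr1b* and *Ccnd1* without either wild-type library, *Ccnd1* also without the knockout Tet3-CD library, *Dppa3* also without the knockout empty-vector library, and *Hoxb1* and *Nodal* without the wild-type Tet3-CD library. *Dazl*, *Tuba3a* and *Stk31* also lost it with DESeq2, *Dazl* with edgeR and *Dppa3* with all 6 libraries in the fit.

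Within the Tet3-CD experiment, *Cav1* had a log2 fold change of 1.20 with Tet3-CD and -1.71 with the empty vector, and *Foxc2*, a mesenchyme factor, 0.86 and -0.64, with 1 library per genotype and vector.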

How the results depend on the processing

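The counts of DEGs, 1267 up and 717 down, stayed within 1.5 times of these values with pseudocounts of 0.1 and 5, no filter, a mean of at least 50, all 6 libraries, edgeR, DESeq2, TMM rescaling and no fold change threshold. Without the vector block they were 840 and 450. With a library left out from the fit of all 6, which itself gave 1251 and 663 and in which the mutant libraries enter the vector effect and the spread, they ranged from 353 to 1747 up and from 182 to 1085 down; the lone library of a genotype is then assumed to vary like the others. Of 122 named DEGs, 53 kept the call under every alternative and left-out library, 33 lost it without the vector block, 61 without the wild-type empty-vector library and 59 without the wild-type Tet3-CD library. Direction turned for the log2 fold change of Cav1, at 1.02 without the knockout empty-vector library and -1.53 without the knockout Tet3-CD library, and the log2 fold change of Foxc2, at 0.88 and -0.65 in the same order, each a DEG in these fits and neither a DEG with all libraries. List medians were taken under only some of these settings, which gave 130 medians for 26 lists. Of the 130, 8 moved beyond the spread of the vector pairs, and 2 changed sign, each within 0.04 of 0. The 2 were that of proneural and Notch genes with a mean of at least 50 and that of fibroblast and feeder markers with TMM rescaling.

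The day 3 count of 115 was 916 with DESeq2, from 0 to 2 with a sample left out, and 98 with the replicate number as a block, where same-numbered knockout and wild-type samples had correlations of -0.275 and -0.000482, and pairs with the mutant, which is in the fit, of -0.0711 to 0.178. The Dnmt1 empty-vector count of 4504 was 4398 with DESeq2 and 4048 to 4164 with a sample left out. No paired analysis was run there, because the wild-type columns share a name and could not be matched by number. The knockout and mutant count of 2430 was 2525 with DESeq2. The cause was not tested for any of these.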
